A study of Homo sapiens with 12 samples.

Results

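Last-exon peaks are m6A peaks that the authors' peak annotation places in the final exon of a transcript of at least 2 exons, outside any stretch that it labels as UTR, on rows whose transcript is protein-coding. The rule that chose them used annotation alone, but it was set with earlier results of these data known. There were 740 such peaks of 39492 in the control list and 842 of 28891 in the knockdown list. A further 107 of the 8970 rows of the differential table had a last-exon annotation and a gene with a listed last-exon peak. Their own transcript type was not part of the rule, and it was protein-coding in 100, a processed transcript in 4 and a retained intron in 3. Thus the members came to 1689 of 77353 rows in all 3 tables. They carried 571 gene names in the control list and 603 in the knockdown list, of which 289 were shared, giving 885 in either.

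HGC27, an established line from a human gastric carcinoma, was studied with FTO knocked down and as a control that the titles call WT and Con. The titles and genotype of the treated cells read FTO-KO, a knockout, with replicates named sh1, sh2 and sh3, whereas the protocol speaks of a knockdown. The hairpins are not specified, and knockdown is used here since FTO RNA remained. The labels give the controls no hairpin of their own. Nothing in them says that replicates 1 to 3 were grown separately, and the spread behind each p-value may thus be only technical. Each condition had 3 libraries of RNA fragments bound by an m6A antibody (IP) and 3 of the fragments before enrichment (input), 12 in all. Each condition had 1 peak list, so no peak count, length or enrichment has a replicate check. The series was designed to ask how FTO restrains ferroptosis through HOXC8, MDM2 and p53. FTO, HOXC8 and MDM2 had 0 last-exon peaks in either list.

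N6-methyladenosine (m6A) is written on nascent RNA by a METTL3-METTL14 complex, mostly in short motifs such as GGAC, and is removed by the demethylases FTO and ALKBH5. In mature mRNA it gathers near stop codons and in long internal and last exons, where YTH-domain proteins can bind it and change the stability or translation of the message. Because the last exon of most genes holds both the end of the coding sequence and the 3′ UTR, a peak's class depends on which part of that exon it reaches and on the transcript model used. The enrichment values below are IP over input as the authors gave them for each peak, and they describe peaks within a list.

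The sequences shown are GGAC motifs, with 10 bases on each side, that fall inside last-exon peaks of protein-coding exons. They were read from RefSeq windows around gene starts (GRCh38.p14), which are the only genome sequence used here. They are not every such motif, since windows of a skipped chromosome, exons of unknown strand and motifs at window edges were left out. The window counts below were made without these exclusions. The sequences are shown so that the letters beneath enriched last-exon RNA can be seen. Capitals mark GGAC on the strand of the exon. ZNF469 codes for a large zinc finger protein linked to corneal structure, and its motifs lie in exon 3 of 3 at chr16:88430334-88430357 and chr16:88430562-88430585 (plus strand), in a peak with an enrichment of 11.3 in the control list and 49.5 in the knockdown list. ZBTB12 is a BTB-domain zinc finger gene whose last exon, 2 of 2, was listed under its neighbour C2, and its motifs lie at chr6:31900820-31900843, inside a peak of both lists, and chr6:31900999-31901022, inside the control peak alone (minus strand). MAFG codes for a small bZIP partner of NFE2L2, and its motif lies in exon 3 of 3 at chr17:81922725-81922748 (minus strand), in a knockdown peak with an enrichment of 3.05. ANKRD37, a hypoxia-responsive gene, has its motif in exon 2 of 2 at chr4:185397472-185397495 (plus strand), in a control peak with an enrichment of 2.84.
ZNF469 first motif: ggaaggatctGGACtcgggcggcg
ZNF469 second motif: cccccaggaaGGACcccaggaaga
ZBTB12 first motif: cctccagccaGGACcccaaagcca
ZBTB12 second motif: tcgctgttagGGACatcgtcaact
MAFG motif: accttcgcccGGACggtggcccgc
ANKRD37 motif: cttgatgtgaGGACatgagaaatt
The first ZNF469 motif is the only GGACT among these. Of the 40 RefSeq windows of 300 bases that shared bases with a last-exon peak, 34 held GGAC and 17 (42.5%) held GGACT on either strand. Among all 34935 windows, 87.3% held GGAC and 44.1% held GGACT, and every GGACT also counts as a GGAC. A match describes the letters and is not a mapped methylation site.

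Last-exon peaks took a larger share of the knockdown list, which is the shorter one, than of the control list. The shares of other exon classes and of 5′ UTR peaks were higher there as well. They made up 1.87% of control peaks (exact binomial 95% interval 1.74 to 2.01) and 2.91% of knockdown peaks (2.72 to 3.11). These intervals cover counting error only. Among peaks of protein-coding transcripts the shares were 5.62% and 8.01%. Internal-exon peaks made up 3.37% of the control list and 4.54% of the knockdown list (1331 and 1313 peaks), first-exon peaks 1.281% and 1.499%, and peaks of single-exon transcripts 0.772% and 0.959%. The shares of 5′ UTR peaks were 9.42% and 10.28% (3722 and 2970 peaks), and those of 3′ UTR peaks 16.6% and 16.2% (6568 and 4671 peaks). Among peaks with an adjusted p of at most 1e-05, the last-exon shares were 1.41% of the control list (344 peaks) and 2.64% of the knockdown list (622 peaks). The share was higher in the knockdown list in each class of exonic length. For peaks of up to 150 bp it was 2.46% and 3.83%, from 150 to 300 bp 1.82% and 2.96%, from 300 to 600 bp 1.88% and 2.57%, and above 600 bp 1.45% and 2.27%.

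Single last-exon peaks were shorter than 3′ UTR peaks and nearly always unspliced. Their median exonic length was 300 bp in the control list and 240 bp in the knockdown list, against 421 bp and 359 bp for 3′ UTR peaks. The medians of whole lists were nearer, at 330 bp and 271 bp. A single block held 93.9% and 96.6% of last-exon peaks, whereas 51.0% and 62.8% of internal-exon peaks and 69.4% and 74.7% of whole lists had 1 block. The transcripts of last-exon peaks often had few exons: 265 control peaks (35.8%) and 276 knockdown peaks (32.8%) lay in exon 2 of 2. Their median enrichment was 6.11 in the control list (quartiles 3.44 to 10.3) and 7.92 in the knockdown list (4.51 to 13.5). These medians are over different sets of peaks, and values for overlapping pairs are given below. The medians of 3′ UTR peaks were 6.20 and 7.82, those of internal-exon peaks 4.77 and 6.24, and those of whole lists 6.11 and 7.05. An adjusted p of at most 1e-05 was reached by 46.5% of control and 73.9% of knockdown last-exon peaks, against 72.6% and 89.8% of 3′ UTR peaks.

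The exon under the peak was not always an exon of the gene that the row names. It belonged to the named gene in 493 of 740 control peaks (66.6%) and 621 of 842 knockdown peaks (73.8%). In the others it belonged to another gene, of which 79 control and 109 knockdown peaks matched a RefSeq protein-coding gene, 53 and 35 a long non-coding RNA, and 25 and 17 a pseudogene. For 90 control (36.4%) and 60 knockdown peaks (27.1%) of these others, the gene of the exon had no RefSeq match. Examples are HOXA13, whose row lies in the last exon of the long non-coding RNA HOTTIP, and IER5L, whose row lies in IER5L-AS1. Where gene and exon differ, the input RNA value in the row is that of the named gene, not of the RNA that carries the peak. Values for peaks in an exon of the named gene are therefore given separately below. The exon was of the very transcript listed in 89 control and 135 knockdown peaks, and the middle of these peaks lay a median of 1935 bp (quartiles 1143 to 3146) and 1913 bp (1247 to 3295) before the transcript's end.

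Most last-exon peaks of the knockdown list had an overlapping peak in the control list, but often one with another label. Of the 842 knockdown peaks, 748 (88.8%) shared at least 1 bp with a control peak, as did 88.8% of all knockdown peaks. Of the 740 control peaks, 358 (48.4%) shared bases with a knockdown peak, against 57.9% of all control peaks and 64.4% of 3′ UTR peaks. The control counterparts of the 748 knockdown peaks were labelled exon in 409 cases, 3′ UTR in 288 (38.5%, exact binomial interval 35.0 to 42.1) and 5′ UTR in 51. Several knockdown peaks could share the same control peak, as those of PCDH20 shared a 3′ UTR peak of 3077 bp. Each such pair was counted, so the pairs are not independent and the interval is too narrow. Shares with each control peak counted once were not computed. In the other direction, 330 of the 358 knockdown counterparts were labelled exon, 21 (5.87%) 3′ UTR and 7 5′ UTR. A 3′ UTR counterpart was found for 12.8% of the internal-exon peaks of the knockdown list that had one. All 1312 peaks at identical positions in both lists carried identical annotation text.

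**Figure D1:**
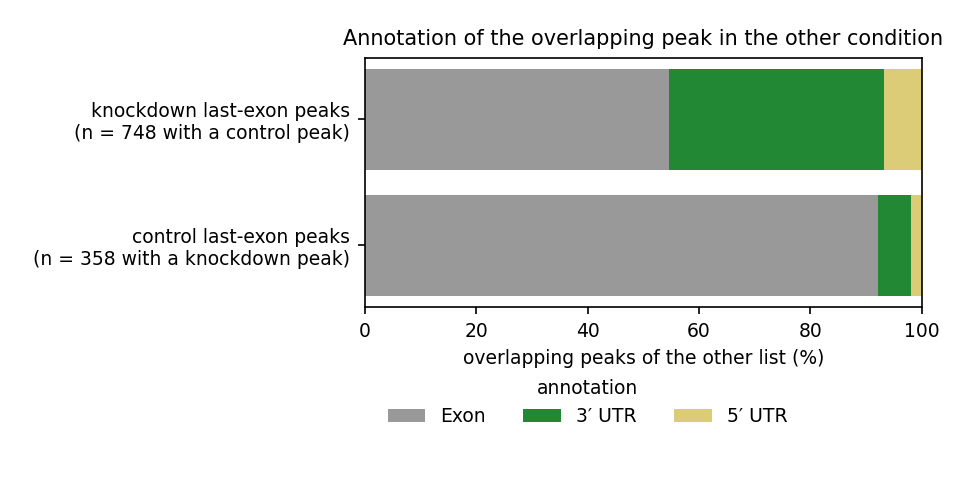
Annotation of the overlapping peak in the other list for 358 control and 748 knockdown last-exon peaks, as the percentage of those peaks on the horizontal axis. A green 3′ UTR segment of 38.5% is seen for knockdown peaks and of 5.87% for control peaks.

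The counterparts differed in length. Knockdown last-exon peaks whose control counterpart was labelled 3′ UTR had a median exonic length of 271 bp, and the counterparts 1469 bp. In 264 of these 288 pairs (91.7%), at least 90% of the knockdown peak lay inside the control peak. A long control peak shared by several knockdown peaks entered this count and the counterpart median more than once. Where the counterpart was labelled exon, the medians were 264 bp and 600 bp. Over all overlapping peaks of the knockdown list, the medians were 327 bp and 594 bp. The larger number of last-exon peaks after knockdown thus came together with shorter peaks, and the part of peak length in that number was not tested. Knockdown last-exon peaks with no control counterpart numbered 94 and were shorter and weaker, with a median of 91 bp and an enrichment of 3.98. The 382 control peaks with no knockdown counterpart had medians of 181 bp and 5.34. In the 748 overlapping pairs, knockdown last-exon peaks had a median enrichment of 8.36 and their control counterparts 11.5. The knockdown value was higher in 272 pairs (36.4%), against 52.2% over all overlapping knockdown peaks. For the 358 control last-exon peaks with a counterpart, the median was 7.90, and 8.92 in the counterparts. The control value was higher in 143 of these pairs (39.9%), against 40.7% over all overlapping control peaks.

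**Figure D2:**
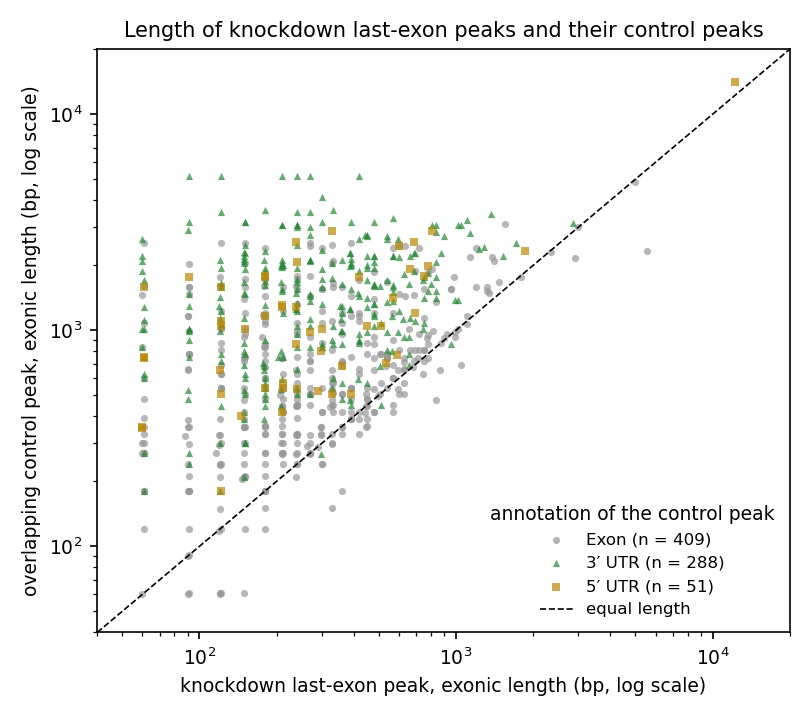
Exonic length of each of 748 knockdown last-exon peaks (horizontal, bp, log scale) and of its overlapping control peak (vertical, bp, log scale), marked by the annotation of the control peak. Points above the dashed line of equal length, 89.6% of them, have a shorter knockdown peak, and 3′ UTR counterparts sit highest, with a median of 1469 bp.

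The most enriched last-exon peaks in the control list with an adjusted p of at most 1e-05 lay in CRACD, SIX5, ZNF658, COL8A2 and IER5L. CRACD codes for an inhibitor of actin filament capping proteins, and its peak in exon 8 of 8 at chr4:56314158-56315028 had the same ends in both lists, with an enrichment of 91.3 in the control list and 148 in the knockdown list. The peak named for the homeobox gene SIX5 lay at chr19:45768624-45769303 in exon 2 of 2 of ENSG00000259605, at 82.8 and 154. ZNF658, a zinc finger gene with near-identical copies to which reads may be shared, had 74.8 in the control list and 12.8 in the knockdown list. COL8A2, a short-chain collagen, had 58.8 and 13.7. The peak of IER5L, in exon 2 of 2 of IER5L-AS1, had 57.7 and 126.

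In the knockdown list the leading gene was FOXO6, a forkhead transcription factor, with an enrichment of 183 in exon 2 of 2 at chr1:41382242-41383051. Its control counterpart, at 68.0, was listed on a transcript of another type. SIX5, CRACD and IER5L came next, and the fifth was KTN1, at 115 in the last exon of KTN1-AS1. The KTN1 counterpart in the control list, labelled an internal exon, stood at 202. Of these 10 places, 3 names stood in both lists.

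Several genes carried a row of peaks along a single long last exon. ZNF469 held 6 peaks in the control list, with enrichments of 6.92 to 27.7 over 8149 exonic bp, and 9 in the knockdown list, with 1.64 to 60.6 over 7825 bp. All lay in exon 3 of 3, between chr16:88428481 and 88438242. ZNF292, a zinc finger gene, held 1 control peak in exon 8 of 8 (enrichment 4.73, 780 bp) and 7 knockdown peaks (3.72 to 21.0, 1803 bp in all). The knockdown peak of 450 bp overlapped that control peak. The other ZNF292 knockdown peaks overlapped a control peak labelled 3′ UTR, with 5154 exonic bp and an enrichment of 15.1. AHNAK, a giant scaffold protein coded almost wholly by its last exon, held 4 control and 2 knockdown peaks, covering 4922 and 8489 bp. The control bp leave out a peak of 2340 bp labelled exon (enrichment 8.82) that is not among these 4. It was the control counterpart of the AHNAK knockdown peak of 5579 bp. CASP8, the initiator caspase of death receptors, held 6 control peaks in exon 3 of 3 of a short transcript model, the first at chr2:201240292-201240352, and 1 knockdown peak in exon 7 of 7 at chr2:201277043-201277755, so its class rests on different transcript models. PCDH20, a protocadherin, held 8 knockdown peaks that form overlapping pairs at nearly the same positions. When overlapping rows were counted once, the members numbered 720 and 813. These genes were chosen for their number of peaks after the values were seen.

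C2H2 zinc finger genes, a family of DNA-binding proteins whose finger arrays are commonly coded by one long last exon, had the largest number of members of any list examined. A last-exon peak was found for 66 of the 348 zinc finger genes with a peak in the control list (18.97%, exact binomial interval 14.98 to 23.49) and 108 of the 311 in the knockdown list (34.7%, 29.4 to 40.3). Over all genes with a peak on a protein-coding transcript the shares were 7.97% and 10.3%. With the exon required to be that of the named gene, the shares were 13.5% and 28.3%, against 5.36% and 7.53% of all genes. The lists shared 46 zinc finger genes, while 20 had a last-exon peak only before and 62 only after knockdown. Of the 170 zinc finger peaks of the knockdown list with a control counterpart, 82 (48.2%) had one labelled 3′ UTR. The median length was 300 bp for all 170 knockdown peaks and 1375 bp for their counterparts. A control peak shared by several of them, as in ZNF292, was counted each time. Enrichment was higher in the knockdown list in 47 of the 170 pairs. The list was drawn by symbol prefix, so it also took ZFP36L2, which has CCCH fingers.

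**Figure D3:**
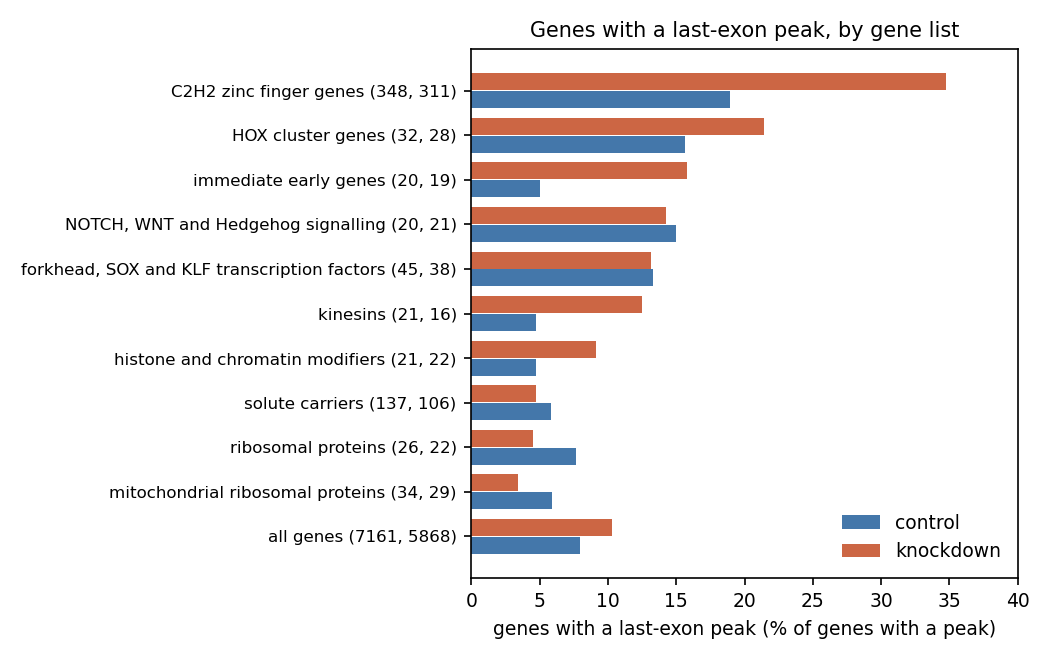
Share of genes with a last-exon peak (%, horizontal) among the genes of each list that had a peak on a protein-coding transcript, for lists with at least 20 such genes in the control list, with the numbers of control and knockdown genes in parentheses. Zinc finger genes stand at 18.97% and 34.7%, and all genes at 7.97% and 10.3%.

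Other lists held few members. Of HOX genes, which pattern the body axis, 5 of 32 in the control list and 6 of 28 in the knockdown list had a last-exon peak: HOXA2, HOXA4, HOXA13, HOXC13 and HOXD3 in both, and HOXC9 in the knockdown list, with only 2 and 3 of them in an exon of the HOX gene itself. Immediate early genes gave EGR1 in the control list and EGR1, EGR3 and SPRY2 in the knockdown list. Solute carriers gave 8 of 137 and 5 of 106, the latter including SLC22A18AS, an antisense gene taken by its prefix. NOTCH, WNT and Hedgehog genes gave APC2 and NOTCH3 in both lists, HEY1 in the control list and RNF43 in the knockdown list. The lists of m6A writers, erasers and readers, of ferroptosis drivers, of the p53 pathway, of integrins, of DNA replication and of the unfolded protein response had 0 last-exon peaks. Each of these lists had only 7 to 12 genes with a peak in the control list and 7 to 13 in the knockdown list. Over all genes the shares with a last-exon peak were 7.97% and 10.3%, so 0 in lists this small says little about them. Among ferroptosis suppressors, NFE2L2, the master regulator of antioxidant genes, had 1 in the knockdown list with an enrichment of 5.48. BNIP3, a hypoxia-induced mitophagy receptor, had last-exon peaks in both lists.

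In the authors' deposited table of differential peaks, 63 of the 107 last-exon rows were higher in m6A after knockdown (58.9%, exact binomial interval 49.0 to 68.3) and 44 (41.1%) were lower. Over all 8687 rows of that table with a gene name, 55.4% were higher and 44.6% lower, so the members' split lay near the background. In the authors' deposited table, 53.1% of 3′ UTR rows, 67.8% of 5′ UTR rows and 62.9% of internal-exon rows were higher. The median log2 fold change of the members, knockdown over control, was 0.42 in the authors' deposited table, against 0.28 over all its named rows. A difference of at least 1 on the log2 scale was listed upward for 28 of the 107 members and downward for 16 in the authors' deposited table. Of its 8687 named rows, 1457 (16.8%) and 842 (9.69%) reached that size. Those are smaller shares than the members' in both directions, and the difference was not tested. In an exon of the named gene, 44 of 69 rows of the authors' deposited table were higher, and in an exon of another gene 19 of 38. Where the named gene had a mean under 1 FPKM, 13 of 28 rows of the authors' deposited table were higher (46.4%). The largest deposited p of the 107 rows was 0.0490, and the deposited adjusted p was over 0.05 in 18 of them. Of the 885 genes with a listed last-exon peak, 10.8% had a row here. The matching shares over all named rows and over all genes with a peak were not computed, so neither count sets the members apart.

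**Figure D4:**
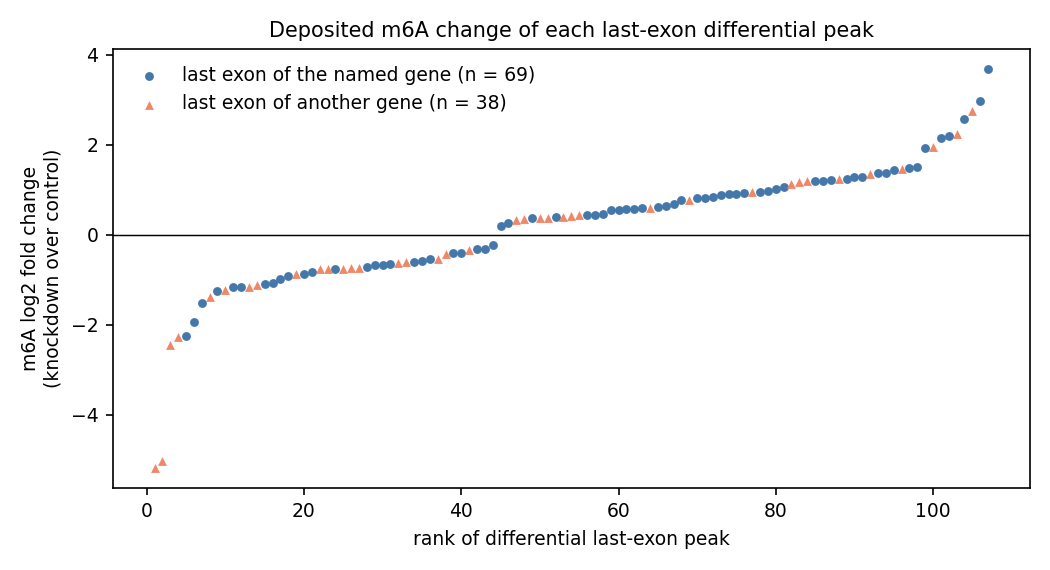
The m6A log2 fold change of knockdown over control (vertical) for each of the 107 differential last-exon peaks, ranked (horizontal), from the authors' deposited table. Values run from -5.18 to 3.68, with 63 above 0, and triangles mark the 38 peaks in an exon of a gene other than the named one.

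With each gene taken at its row of smallest p, and only genes that averaged 1 FPKM or more, the 10 largest upward differences in m6A included 7 in the named gene's own last exon. In the authors' deposited table, SGSH, the lysosomal sulfamidase that degrades heparan sulfate, had a log2 fold change of 2.19 at chr17:80212372-80212611, exon 5 of 5, with an adjusted p of 0.0741. CAPN15, a member of the calpain protease family, had 1.93 at chr16:537633-537902 (adjusted p 4.47e-09) and, further along the same exon at chr16:538201-538860, -0.22 (0.0282) in the authors' deposited table. The first of these rows had no peak in either list. ZSCAN18, a SCAN-domain zinc finger gene, had 1.51 in exon 6 of 6 at chr19:58084916-58085515 (adjusted p 1.58e-28 in the authors' deposited table). CCDC106, a coiled-coil protein gene, had 1.48, HOMER2, a synaptic scaffold gene, 1.44 (adjusted p 0.109), CRACD 1.38 and ZNF324B 1.37 in the authors' deposited table. The CRACD difference concerns the peak that leads the control list, and its adjusted p was 2.51e-23 in the authors' deposited table. The other 3 were listed under COMMD5 (2.24, in ENSG00000286681), PIGQ (1.96, in PRR35) and SNX27 (1.47, in ENSG00000250734) in the authors' deposited table. Their adjusted p in the authors' deposited table was 0.0813, 3.24e-06 and 0.0977.

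Of the 10 largest downward differences chosen in the same way, 7 lay in an exon of another gene. In the authors' deposited table the extreme value, -5.18, was listed under ZNF155 at chr19:43966933-43967142, in the last exon of the neighbouring zinc finger gene ZNF221, where the control list had an enrichment of 25.2 and the knockdown list no peak. MID1 stood at -2.44 in HCCS-DT (adjusted p 0.0676) and ZC3H18 at -2.28 in ZFPM1, a GATA cofactor gene, in the authors' deposited table. In its own exon 5 of 5, ZC3H18, which codes for a nuclear RNA-processing factor, stood at 1.06 in the authors' deposited table. HOXA4 at -1.22 lay in HOXA-AS2, INO80D at -1.15 in INO80D-AS1, MBNL1 at -1.12 in MBNL1-AS1 and LSM2 at -0.76 in HSPA1L, a testis-enriched HSP70 gene, in the authors' deposited table. THAP6 at -1.17, NPIPA5 at -0.99 and PNRC2 at -0.83 lay in their own last exons in the authors' deposited table. NPIPA5 belongs to a family of near-identical copies, so its reads may be shared among them.

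ZNF469 had the most differential rows, 4, and all were higher after knockdown in the authors' deposited table. Along exon 3 of 3 the log2 fold change was 0.64 at chr16:88428481-88430966, the peak that holds both motifs shown above, 0.44 at chr16:88431415-88433092, 0.93 at chr16:88433152-88433990 and 1.28 at chr16:88435068-88437434 in the authors' deposited table. Their adjusted p ran from 5.01e-25 to 0.000302 in the authors' deposited table. AHNAK had 0.44 and 0.57 at 2 adjoining peaks, and SIX5 1.18 and 1.25 at 2 overlapping ones, in the authors' deposited table. For the SIX5 row at 1.18, the listed enrichments went the other way, 82.8 in the control list and 40.5 in the knockdown list. TICAM1, the adaptor of the TLR3 pathway, had 0.91 and 0.95 at rows that differ by a few bases, so they are one place, in the authors' deposited table. SRGAP2, which has near-identical copies, and SAMD9L, an interferon-regulated gene, had 1 row in each direction in the authors' deposited table. The lower SRGAP2 row, at -1.10, exceeded 3 of the downward differences named above but was not its gene's row of smallest p in the authors' deposited table.

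Of the gene lists, zinc finger genes had 16 differential rows in 13 genes, 10 higher and 6 lower, in the authors' deposited table. The smallest p values were those of ZBTB4, a methyl-CpG binding repressor, at 0.83 (adjusted p 1.26e-32 in the authors' deposited table), and ZSCAN18. NOTCH3, the receptor, stood at 1.02 in exon 33 of 33 at chr19:15161015-15161614, with an adjusted p of 3.98e-46 in the authors' deposited table. FOXA2, a forkhead factor of endoderm with a mean under 1 FPKM, stood at 1.21 in the authors' deposited table. Both HOX rows, HOXA13 at -0.62 and HOXA4 at -1.22, lay in long non-coding RNAs, HOTTIP and HOXA-AS2, in the authors' deposited table. Both solute carrier rows were lower, SLC35A4 at -0.32 and SLC34A3 at -1.51, in the authors' deposited table. The SLC34A3 row had an adjusted p of 0.102 in the authors' deposited table, and that gene averaged 0.0193 FPKM.

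Input RNA checked the knockdown and gave the expression of the named genes. FTO stood at 5.48, 5.68 and 5.52 FPKM in the control libraries and 0.786, 0.830 and 0.765 in the knockdown libraries, so it was 7.00-fold higher in controls. In bulk RNA, a change in the mix of cells and a change in RNA per cell cannot be told apart. FPKM sums of the input libraries ran from 74289 to 86902 over the 6396 genes listed, all of which had a differential peak, and their sequencing depth is unknown. Pearson's r on log values was 0.988 to 0.992 within and 0.958 to 0.969 between conditions. Of 11 gastric epithelial markers this table held MUC1 alone, at 1.19 to 1.61 FPKM, and of 7 fibroblast markers COL1A1 and THY1, whose sum was 177 to 189 FPKM in the control libraries and 153 to 170 in the knockdown libraries. It held 0 of 5 immune, 2 erythroid and 3 endothelial markers, so the line's identity was not tested further.

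Expression of genes with a differential last-exon peak changed about as often as that of other genes in the table. Of 96 such genes, 71 had a mean of at least 1 FPKM and were tested with limma on log2(FPKM + 1), with Benjamini-Hochberg adjustment over all 4515 genes tested. Of these 71, 19 rose (26.8%) and 23 fell (32.4%), 42 in all (59.2%). Over all genes tested, 62.4% passed, 24.5% upward and 37.9% downward. With quantile normalization 25 rose and 16 fell, and with median-centring 25 rose and 18 fell, so the split between directions depends on the scaling. The median log2 fold change was -0.02 for the members and -0.07 for all genes tested. The groups did not overlap in 47 of 71 members (66.2%), against 67.8% of all genes. Where the exon belonged to the named gene, 10 of 44 genes rose and 17 fell.

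**Figure D5:**
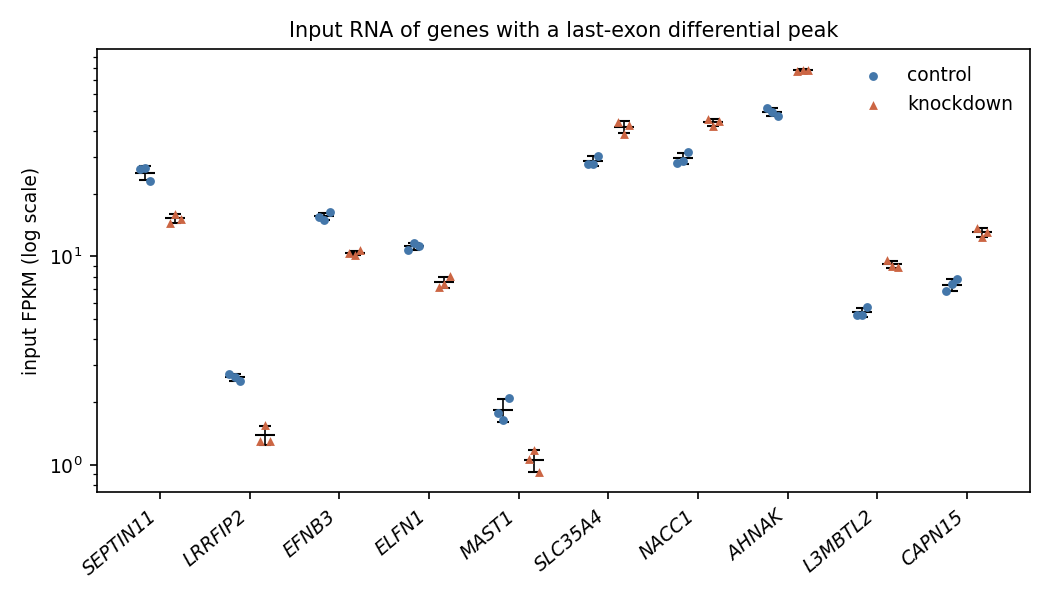
Input FPKM (vertical, log scale) of the 5 largest falls and 5 largest rises among genes with a differential last-exon peak, in 3 control (circles) and 3 knockdown (triangles) libraries, with the mean and SD as black bars. In each of the 10 genes the groups do not overlap, from MAST1 near 1 FPKM to AHNAK at 77.5 to 78.6 FPKM after knockdown.

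CAPN15 had the largest rise. Its FPKM was 6.82, 7.37 and 7.75 in the control libraries and 13.7, 12.4 and 13.1 in the knockdown libraries. Every knockdown library lay above every control, and the log2 fold change was 0.76 ± 0.06 (SE, n = 3 per group; limma adjusted p 3.49e-05). L3MBTL2, a Polycomb-group gene whose row lies in L3MBTL2-AS1, had 5.23, 5.25 and 5.70 FPKM against 9.61, 8.96 and 8.90, a rise of 0.67 ± 0.05 (limma adjusted p 3.51e-05).

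AHNAK had 51.6, 49.4 and 47.0 FPKM in the controls and 77.5, 78.5 and 78.6 after knockdown, a 1.59-fold rise (log2 0.66 ± 0.04, limma adjusted p 2.29e-05). NACC1, a BTB-domain transcriptional regulator, had 28.2, 28.6 and 31.7 FPKM against 45.4, 42.0 and 44.4, a rise of 0.56 ± 0.05. SLC35A4, of the nucleotide-sugar transporter family, had 27.8, 27.8 and 30.4 FPKM against 43.9, 38.8 and 42.6, a rise of 0.53 ± 0.06. None of these sets of 3 values overlapped, and the last 2 genes differed in m6A, at 0.81 for NACC1 and -0.32 for SLC35A4 in the authors' deposited table. ZNF469 lay near the lower limit of testing, with 1.02, 0.982 and 1.09 FPKM against 1.43, 1.28 and 1.38, and rose by 0.22 ± 0.06 (limma adjusted p 0.0101).

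SEPTIN11, which codes for a filament-forming GTPase, had the largest fall. Its FPKM was 26.2, 26.4 and 23.0 in the controls and 14.5, 15.9 and 15.2 after knockdown, with a log2 fold change of -0.69 ± 0.06 (limma adjusted p 6.57e-05). LRRFIP2, a Flightless-interacting gene, had 2.73, 2.63 and 2.53 FPKM against 1.303, 1.56 and 1.304 (-0.60 ± 0.06). The knockdown values of both genes lay below every control value.

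EFNB3, an ephrin ligand, had 15.5, 14.9 and 16.2 FPKM against 10.3, 10.2 and 10.7 (-0.54 ± 0.04). ELFN1, a synaptic adhesion gene, had 10.8, 11.6 and 11.2 against 7.10, 7.40 and 8.04 (-0.52 ± 0.05). MAST1, a microtubule-associated kinase gene, had 1.76, 1.64 and 2.09 against 1.06, 1.17 and 0.922 (-0.46 ± 0.08). The groups were apart in all 3 genes, with limma adjusted p of 4.84e-05, 0.000117 and 0.0013. NOTCH3 had 19.6, 20.7 and 21.9 FPKM against 16.96, 14.9 and 15.7 and also fell, by 0.37 ± 0.06 on the log2 scale (limma adjusted p 0.00105).

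Genes of higher m6A and genes of lower m6A both contained rises and falls of input RNA. Of the 44 tested genes whose last-exon row of smallest p was higher in m6A in the authors' deposited table, 12 rose, 16 fell and 16 did not pass. Of the 27 whose row was lower in the authors' deposited table, 7 rose, 7 fell and 13 did not pass. The median log2 fold change of input RNA was -0.04 and 0.04 in these groups. With the exon in the named gene, 8 of 32 rose and 14 fell with higher m6A, and 2 of 12 rose and 3 fell with lower m6A. Over all 4515 genes tested, 24.5% rose and 37.9% fell. Their split by direction of m6A was not computed, so these counts do not set the members apart. No test was made of a relation between m6A and expression. Among the largest m6A differences, CRACD (-0.29 ± 0.05), ZSCAN18 (-0.27 ± 0.05) and HOMER2 (-0.28 ± 0.05) fell in input RNA. SGSH, at -0.05 ± 0.07 (limma adjusted p 0.535), and CCDC106, at 0.06 ± 0.08 (0.534), did not pass. CCDC106 had 3.69, 3.65 and 4.797 FPKM in the controls, and without control replicate 3 it rose by 0.17 (limma adjusted p 0.00984). The fall of ZSCAN18 did not pass with quantile normalization (limma adjusted p 0.0781).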

How the data were processed

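Per the submitters' processing notes, the tools were HISAT2 2.0, StringTie 1.3.0 and Bowtie 0.12.2, with no role stated for any. Which program called peaks is not given in the sources used here. A mouse build, mm8, is also listed there, but 99.5% of 1541 listed transcripts matched by symbol and chromosome overlapped the human RefSeq gene span of GRCh38.p14, so positions are read as GRCh38 and counted from 1. Per the file headers, the authors gave FPKM per input library, a log2 fold change and a p-value per differential peak, a fold enrichment (ratio of IP over input) per peak, and adjusted p-values as log10 scores. The deposited log2 values were control over knockdown and were turned to knockdown over control. The sign was checked against the enrichments of the lists, with the same sign in 70 of 74 members. The 283 differential rows without a gene name were left out.

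Exonic blocks were intersected with bedtools 2.31.1, at least 1 bp, on the same strand where known. Expression was tested with limma 3.58.1 in R 4.3.3 (log2(FPKM + 1), trend, two-sided, no block, mean of at least 1 FPKM, Benjamini-Hochberg threshold 0.05). Fold changes on this scale understate the change of low genes. On data simulated from the 4515 genes of this comparison, 82 of 100 genes changed by 0.5 and 98 of 100 changed by 1 on the log2 scale were recovered, and 13 of 193 calls were false. No other genes were changed in that simulation, and its noise was independent between genes. In the real comparison 62.4% of genes passed, so these rates need not hold there. Replicate numbers were not used as pairs. No sample column went unused, and no library pair was identical. The members and gene lists were chosen with earlier results of these data known. Named genes were the 10 largest m6A differences in each direction (1 per gene, its row of smallest p, mean of at least 1 FPKM), the 5 most enriched peaks per list, the 2 members per list of smallest p and the 5 largest called FPKM rises and falls.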

Additional observations from a re-analysis of the deposited data

How the results depend on the processing

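The count of 42 changed genes ranged from 36 to 46 when each library was left out in turn (15 to 21 rose, 21 to 25 fell), and a mean of at least 5 FPKM, which tests 37 genes, left 23 (12 rose, 11 fell). Both pseudocounts gave the same counts, and no filter on low values gave 50. A replicate block called 41, of which 18 rose. After each gene's mean within its condition was subtracted, same-numbered input libraries of the 2 conditions had correlations of -0.08, 0.03 and 0.02. Not every library correlated best with its own number. These values cannot show whether same-numbered libraries had a shared source. No called member changed direction under any of these fits. For the other results, overlap of control and knockdown last-exon peaks was 29.3% and 31.1% with a 50% reciprocal overlap, 70.9% and 92.4% with an adjusted p of at most 1e-05 in both lists, and 42.6% and 43.0% with last-exon peaks of the other list alone. Control peaks numbered 344 with an adjusted p of at most 1e-05 and 475 with at least 3 exons. The median enrichment at an adjusted p of at most 1e-05 was 7.10 for control and 8.43 for knockdown peaks. It was 7.90 for control peaks that overlap the other list and 8.49 for knockdown peaks at 1 per gene. Chosen after seeing the data, peaks in an exon of the named gene numbered 493 in the control list, with a median enrichment of 5.85, and held 13.5% and 28.3% of zinc finger genes. The share of differential rows higher after knockdown ran from 56.3% to 63.8% over the alternatives, but was 19 of 38 for rows in an exon of another gene and 46.4% for genes under 1 FPKM. Motif counts over whole peaks, and their 300-base alternative, were not run because no genome sequence was used. Depth of the libraries is unknown.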
